A study of Mus musculus with 5 samples.

Results

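The P2X and P2Y receptors are the cell surface receptors for ATP and related nucleotides, and 10 of their genes were followed here through the cell types of the mouse dorsal root ganglion (DRG): P2rx2, P2rx3, P2rx4, P2rx5, P2rx6, P2rx7, P2ry1, P2ry2, P2ry12 and P2ry14. The genes were taken from a list of receptor names and matched by symbol, and 10 of 10 were found among the 17271 rows of the count matrix. The study profiled lumbar DRG of 5 untreated adult wild-type C57BL/6 mice of both sexes by droplet single-cell RNA-seq (10x Genomics 3′ assay), which tags every transcript it captures with a molecular identifier (UMI). All mice belonged to 1 condition, so cell types of the same mice were compared. The study sorted 3352 cells into 14 types, of which 12 are neurons: non-peptidergic (NP_Mrgprd, NP_Mrgpra3, NP_Nts), peptidergic (PEP1_Dcn, PEP1_S100a11.Tagln2, PEP1_Slc7a3.Sstr2, PEP2_Htr3a.Sema5a, PEP3_Trpm8), Th, and neurofilament-containing neurons (NF_Calb1, NF_Pvalb, NF2_Ntrk2.Necab2). The others are satellite glia and endothelial cells. NF_Calb1 is written with the digit 1 in place of the letter l in the deposited annotation.

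P2X receptors are cation channels that open when ATP binds, and each channel is built of 3 subunits from the same or different genes. P2X3 subunits form channels alone or together with P2X2, and nociceptors are the textbook place of these channels in the DRG. P2Y receptors couple to G proteins and answer to ATP, ADP, UTP or sugar nucleotides, depending on the member. ATP reaches them when cells are damaged or stretched, and enzymes on the cell surface cut it to adenosine, which acts on receptors of its own.

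The cell names carry 5 library identifiers, here read as 1 mouse each, and the libraries were called A to E because no label ties them to a sample. They held 164 to 1370 cells, 13050375 to 88886919 UMIs and a median of 52499.5 to 72840 UMIs per cell. Library A was the smallest, with as few as 3 cells of a type. Satellite glia and endothelial cells were shallower (medians of 17729 and 16889 UMIs) than the neurons, whose types had medians of 30800.5 to 105150. NP_Mrgprd neurons alone carried 41.1% of all UMIs. Of 35 markers listed for the types, 32 were called higher in the type or class they mark, the exceptions being Mrgprb5, Mrgprb4 and Cdhr1. A class marker needed a call in any type of its class, and 50.2% of all genes tested were called higher in at least 1 of the 14 types. Some markers name the types, which were defined from the same counts, so this is a description of the labels and no independent check. Between libraries, 7 cell barcodes occurred in 2 libraries each, and leaving out their cells moved the highest level of no receptor by more than 1 SD. The neuronal gene Tubb3 had a UMI in 92.8% of satellite glia and 83.9% of endothelial cells, so low levels of neuronal transcripts in these cells can stem from free RNA, which was not tested.

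A level is given in CPM, the UMIs of a gene scaled to a common total, of the summed cells of a type in a library, and its mean ± SD is over the 5 libraries. P2rx3 had a mean above 100 CPM in 4 neuron types, P2ry1 in 2 and P2rx2 in 1. No type was empty of these receptors: the number with a mean of at least 10 CPM ranged from 1 in PEP3_Trpm8 and endothelial cells to 5 in NP_Mrgpra3 and PEP2_Htr3a.Sema5a. P2rx4 was spread over nearly all types, and P2rx7 and P2ry12 were almost restricted to satellite glia, where 185 of 218 and 129 of 143 UMIs lay. In sums over cells, fewer positive cells and less RNA per cell cannot be told apart from a level alone, so shares of cells with a UMI are given beside it.

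**Figure D1:**
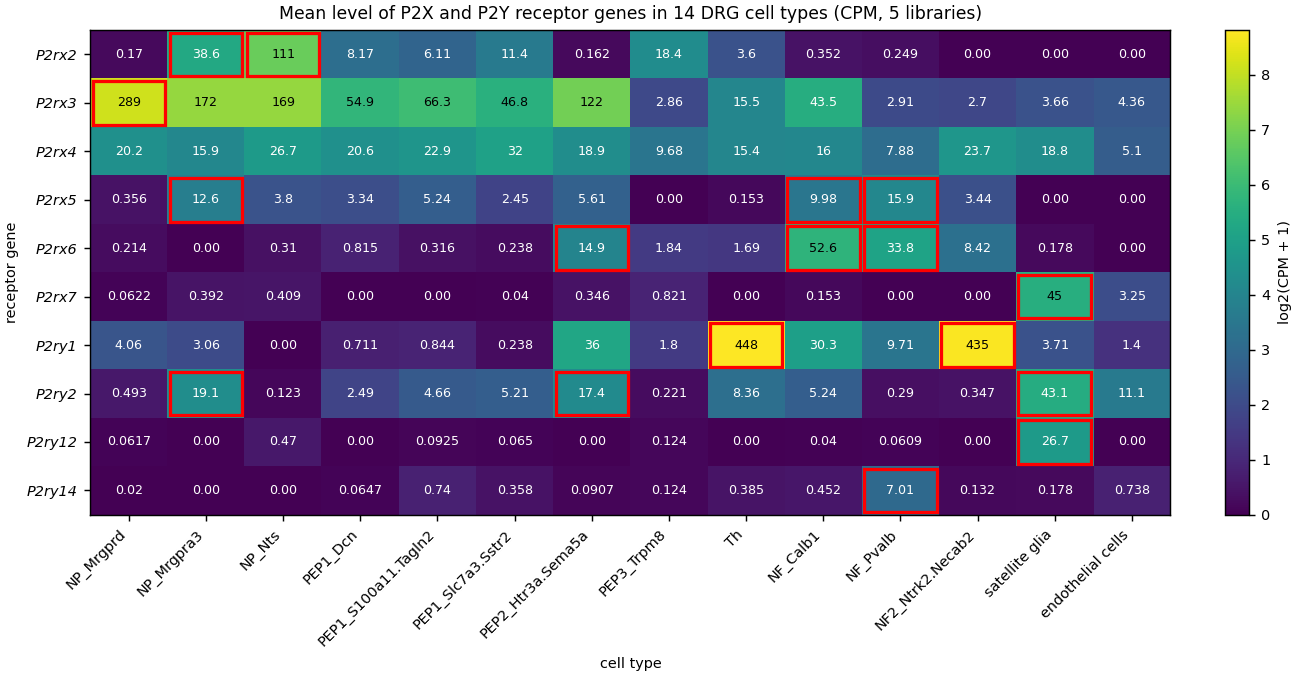
Mean CPM over 5 libraries (number in each field, colour as log2(CPM + 1)) of the 10 receptor genes (rows) in the 14 cell types (columns), with a red frame around the 17 pairs called higher. P2rx3 peaks at 289 CPM in NP_Mrgprd and P2ry1 at 448 CPM in Th and 435 CPM in NF2_Ntrk2.Necab2, while P2rx7 and P2ry12 stand out in satellite glia.

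To ask in which types a receptor stood out, the UMIs of a type were compared with those of all other cells of the same libraries with edgeR's quasi-likelihood test over all genes. This fit did not pair the sums of a library, and a fit with the library as a block was an alternative. A receptor was called higher at an adjusted p under 0.01, an at least 2-fold difference and a share of positive cells of 25% or more in the type, and called lower at the same p and fold. The types were defined by the study from the same counts, so a call describes how far types differ. Of 140 pairs of receptor and type, 103 passed the filter on low counts, and 17 were called higher and 47 lower. P2ry12 and P2ry14 passed the filter in 1 type each, the one where they were high, so their call there was nearly given by the filter. P2rx7 passed it in 3 types, but 185 of its 218 UMIs lay in satellite glia. Its higher call there was thus also nearly given by the filter, and its p-value is no separate support.

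Of the 10 receptors, 9 were tested in satellite glia, 8 in NF_Pvalb, NP_Nts and endothelial cells, and 7 in each other type. In NP_Mrgpra3, 3 receptors were called higher (P2rx2, P2rx5, P2ry2), where 2.96% of all genes tested were. Satellite glia also had 3 (P2rx7, P2ry2, P2ry12; 14.8% of all genes), as did NF_Pvalb (P2rx5, P2rx6, P2ry14; 12.4%). NF_Calb1 had 2 (P2rx5, P2rx6; 13.4%) and PEP2_Htr3a.Sema5a had 2 (P2rx6, P2ry2; 7.64%). A single receptor was called higher in NP_Mrgprd (P2rx3; 4.72%), NP_Nts (P2rx2; 4.88%), Th (P2ry1; 5.93%) and NF2_Ntrk2.Necab2 (P2ry1; 7.71%). None was called higher in PEP1_Slc7a3.Sstr2 (4.98%), PEP1_Dcn (5.48%), PEP1_S100a11.Tagln2 (3.28%), PEP3_Trpm8 (5.32%) or endothelial cells (15.2%).

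Lower calls were more frequent. NP_Mrgprd had 5 of 7 receptors tested, NF_Pvalb 5 of 8 and satellite glia 5 of 9, against 21.7%, 17.5% and 32.5% of all genes tested. Th, PEP3_Trpm8 and endothelial cells had 4 each (13.9%, 11.1% and 34.2% of all genes), NP_Nts and NF2_Ntrk2.Necab2 had 3 each (18.5% and 13.5%). The 3 PEP1 types each had the same 3 receptors lower, P2rx3, P2rx6 and P2ry1 (PEP1_Dcn 8.28%, PEP1_S100a11.Tagln2 8.36%, PEP1_Slc7a3.Sstr2 12.1% of all genes). NP_Mrgpra3 and NF_Calb1 had 2 each (11.6% and 15.8%) and PEP2_Htr3a.Sema5a had 1 (10.6%). In 1 model of all 70 sums, where each of the other 13 types had the same weight, 28 pairs were called higher and 13 lower. Of the 34 lower calls it lost, 8 changed sign, 3 kept their sign with a usable SE, and 23 kept their sign with an SE above 5, so that the model could not test them. Its fold changes for receptors with no UMI in some type, all but P2rx3, P2rx4 and P2ry2, depend on the prior count of the fit.

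P2rx3 encodes the P2X3 subunit (chr2:84998583-85037462, minus strand, GRCm38, the mm10 assembly of the counts). It was highest in NP_Mrgprd neurons, with 285 CPM in library A, 306 in B, 307 in C, 271 in D and 276 in E. The mean there was 289 ± 16.9 CPM (SD, n = 5), the 5 values lay close together, and 99.4% of the 900 cells had a UMI. Against all other cells the log2 fold change was 2.22 ± 0.11 (SE, adjusted p = 1e-09), with the type higher in 5 of 5 libraries.

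NP_Mrgpra3 followed, with 114 CPM in library A, 201 in B, 197 in C, 159.7 in D and 187 in E. NP_Nts had 175 CPM in library A, 181 in B, 139 in C, 180.1 in D and 169 in E. Their ranges over libraries overlapped (172 and 169 CPM on average), so they did not differ beyond their spread, and both lay below every library of NP_Mrgprd. Library A of NP_Mrgpra3, which rests on 4 cells, was the lowest. PEP2_Htr3a.Sema5a came next at 122 ± 30.6 CPM (SD, n = 5), and its range overlapped that of NP_Nts. The 3 PEP1 types and NF_Calb1 followed with means of 43.5 to 66.3 CPM and overlapping ranges, and PEP1_S100a11.Tagln2 also overlapped PEP2_Htr3a.Sema5a. Th was lower on average, at 15.5 ± 10.1 CPM (SD, n = 5), and its range overlapped those of PEP1_Dcn and PEP1_Slc7a3.Sstr2. Their log2 fold changes against all other cells were negative, at -1.99 in NF_Calb1, -1.75 in PEP1_Slc7a3.Sstr2, -1.16 in PEP1_S100a11.Tagln2 and -1.37 ± 0.20 (SE, adjusted p = 9.5e-05) in PEP1_Dcn. These signs turned in the model with equal weights, to 1.25 ± 0.20 (SE, adjusted p = 3.6e-07) in PEP1_Dcn and 1.43 in PEP1_S100a11.Tagln2, which were called higher, and to 0.88 in PEP1_Slc7a3.Sstr2 and 0.68 in NF_Calb1, which were not. The same weighting called P2rx3 higher in NP_Nts, NP_Mrgpra3 and PEP2_Htr3a.Sema5a as well.

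In the remaining types P2rx3 lay between 2.70 CPM in NF2_Ntrk2.Necab2 and 4.36 CPM in endothelial cells, with satellite glia at 3.66. These levels lay around that of satellite glia, which are not neurons: 8.84% of them (median 17729 UMIs) had a P2rx3 UMI. PEP3_Trpm8 neurons were alike, at 8.33% of 168 cells (median 30800.5 UMIs) and 2.86 CPM. Whether such levels reflect low expression or free RNA was not tested. The larger shares in NF_Pvalb (18.6%) and NF2_Ntrk2.Necab2 (24.1%) went with deeper cells, and became 7.08% and 0% when each cell was thinned to 10000 UMIs, beside 4.02% in satellite glia. The gene overlaps Ssrp1 on the other strand, and strand use in the counting is not given in the sources used here. Ssrp1 lay between 38.2 CPM in NF2_Ntrk2.Necab2 and 82.6 CPM in endothelial cells, with 54.5 CPM in NP_Mrgprd.

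P2rx3 was uneven over the cells of several types. In Th, 41.4% of cells had a UMI, where an even level over cells of this depth would give 64.1%, and the 23 cells with most held 66.3% of the UMIs. The shares found and at an even level were 67.5% and 92.8% in PEP1_Dcn and 70.2% and 93.5% in PEP1_S100a11.Tagln2. NF_Calb1 neurons, which were looked at further, were not uniform either. A UMI was found in 42.2% of the 180 cells, where an even level over cells of this depth would give 93.3%, and the 18 cells with most held 70.1% of the UMIs. No P2rx3 UMI was found in 104 cells, 1 or 2 in 39, and at least 3 in 37, a split chosen after the values were seen. The 37 cells made up 18.8% of NF_Calb1 neurons in library A, 20.7% in B, 20.5% in C, 20.8% in D and 20.9% in E. At this cut the share was nearly equal in the 5 mice, on 3, 6, 9, 5 and 14 cells from A to E. The share of cells without a P2rx3 UMI was less even, from 43.75% in library A to 70.8% in D.

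These P2rx3-rich cells were set beside the cells of the type without a P2rx3 UMI, as a description with no test, for genes chosen after their values were seen. P2rx3 itself stood at 167 CPM (128 to 188), the lowest and highest library in brackets, a level set by the selection. Calca, the gene of the peptide CGRP, was at 598 CPM (47.8 to 944) against 27.5 CPM (18.3 to 42.2) in cells without a P2rx3 UMI, with no overlap between libraries. The cells with 1 or 2 UMIs, at 149.8 CPM (15.4 to 621), overlapped both. Tac1, another peptide gene of peptidergic neurons, was at 20.4 CPM (5.2 to 42.7) against 11.6 CPM (2.65 to 28.8), with overlap. Ntrk3, the receptor for neurotrophin 3, was at 714 CPM (687 to 774) against 223 CPM (108 to 357), and the cells with 1 or 2 UMIs at 235 CPM (95.7 to 369), so that the P2rx3-rich cells overlapped neither set. In the other direction, Calb1, the gene in the name of the type, was at 7.47 CPM (0 to 32.0) against 280.3 CPM (46.7 to 475), and the cells with 1 or 2 UMIs reached from 0 to 333 CPM. Pvalb was at 4.05 CPM (0 to 10.3) against 256 CPM (76.3 to 558), and Ntrk2 at 11 CPM (7.55 to 19.6) against 169 CPM (116 to 208). Among the receptors, P2ry2 was at 14.3 CPM (5.03 to 18.2) against 1.37 CPM (0 to 4.57) and P2rx5 at 2.67 CPM (0 to 7.11) against 12.4 CPM (8.02 to 18.5), while P2rx6 was present in both, at 36.6 CPM (23.4 to 60.5) and 56.0 CPM (48.2 to 63.6). Nefh, a neurofilament gene, was high in both, at 4468 CPM (3236 to 5922) and 5776 CPM (4571 to 7674). The 2 sets had medians of 93846 and 72314 UMIs per cell. Doublets were not called, and the part of mixed or misassigned cells was not tested.

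**Figure D2:**
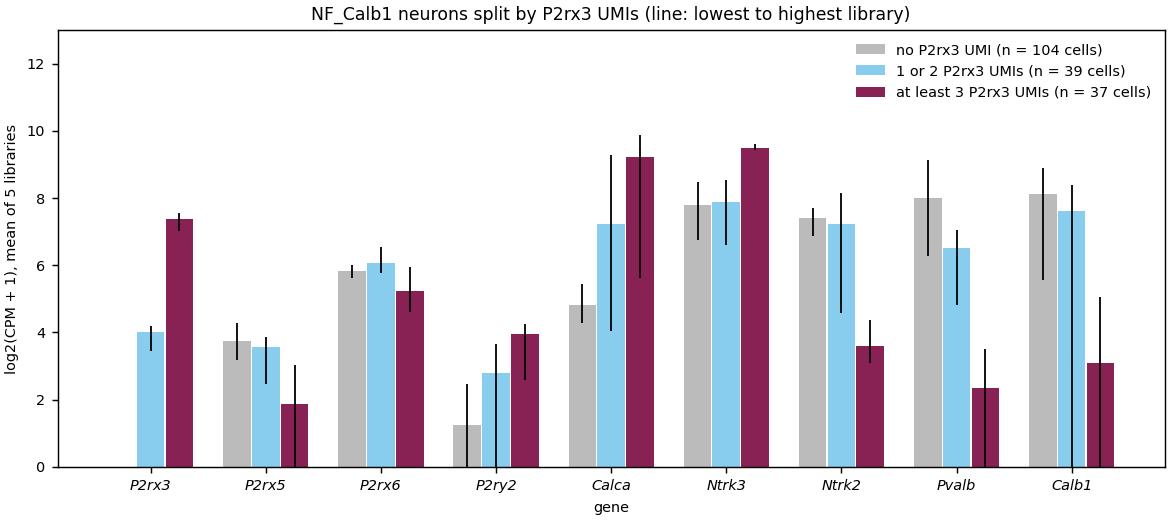
Levels as log2(CPM + 1) of 9 genes in the 180 NF_Calb1 neurons split by their P2rx3 UMIs (grey none, blue 1 or 2, purple at least 3), with bars for the mean of 5 libraries and lines from the lowest to the highest library. Cells with at least 3 UMIs stand higher for Calca, Ntrk3 and P2ry2 and lower for Ntrk2, Pvalb, Calb1 and P2rx5 on average, while P2rx6 is present in all 3 sets.

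P2rx2 encodes the subunit that slows the desensitization of channels it joins (chr5:110339812-110343212, minus strand). In NP_Nts, the neurons that make neurotensin and somatostatin, it had 129 CPM in library A, 108 in B, 106 in C, 117 in D and 94.8 in E. NP_Mrgpra3 had 31.3 CPM in library A, 28.8 in B, 40.1 in C, 49.4 in D and 43.3 in E. The 2 types did not overlap, with means of 111 and 38.6 CPM, and shares of cells with a UMI of 96.5% and 87.5%. NP_Nts held 73.5% of all P2rx2 UMIs, and its log2 fold change against all other cells was 4.72 ± 0.16 (SE, adjusted p = 3.4e-11). In NP_Mrgpra3 it was 1.91 ± 0.25 (SE, adjusted p = 2.2e-05), in both cases with 5 of 5 libraries higher.

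The remaining non-peptidergic type, NP_Mrgprd, was nearly without P2rx2: 26 UMIs in 900 cells, a level of 0.170 CPM, and a log2 fold change of -6.04 ± 0.44 (SE, adjusted p = 4.4e-08). PEP3_Trpm8, the cold-sensing neurons, came next in the order at 18.4 ± 8.27 CPM (SD, n = 5), with 33.0 CPM in library A and 13.6 to 16.1 in the others, so that its range overlapped those of both its neighbours. PEP3_Trpm8 passed no call, and was called higher only in the model with equal weights. The PEP1 types had 6.11 to 11.4 CPM and Th 3.60 CPM. Th was called lower against all other cells, while its sign turned in the model with equal weights, without a call. No P2rx2 UMI was found in NF2_Ntrk2.Necab2, satellite glia or endothelial cells, which allows levels of up to 0.524, 0.656 and 3.19 CPM (3 counts of the type's UMIs, counting error only). Against all other cells this makes P2rx2 at least 26.8-fold lower in NF2_Ntrk2.Necab2 (adjusted p = 6.5e-05), 21.3-fold in satellite glia (adjusted p = 4.2e-05) and 4.31-fold in endothelial cells (adjusted p = 0.0068), a call that ended for endothelial cells without library A, C or E.

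**Figure D3:**
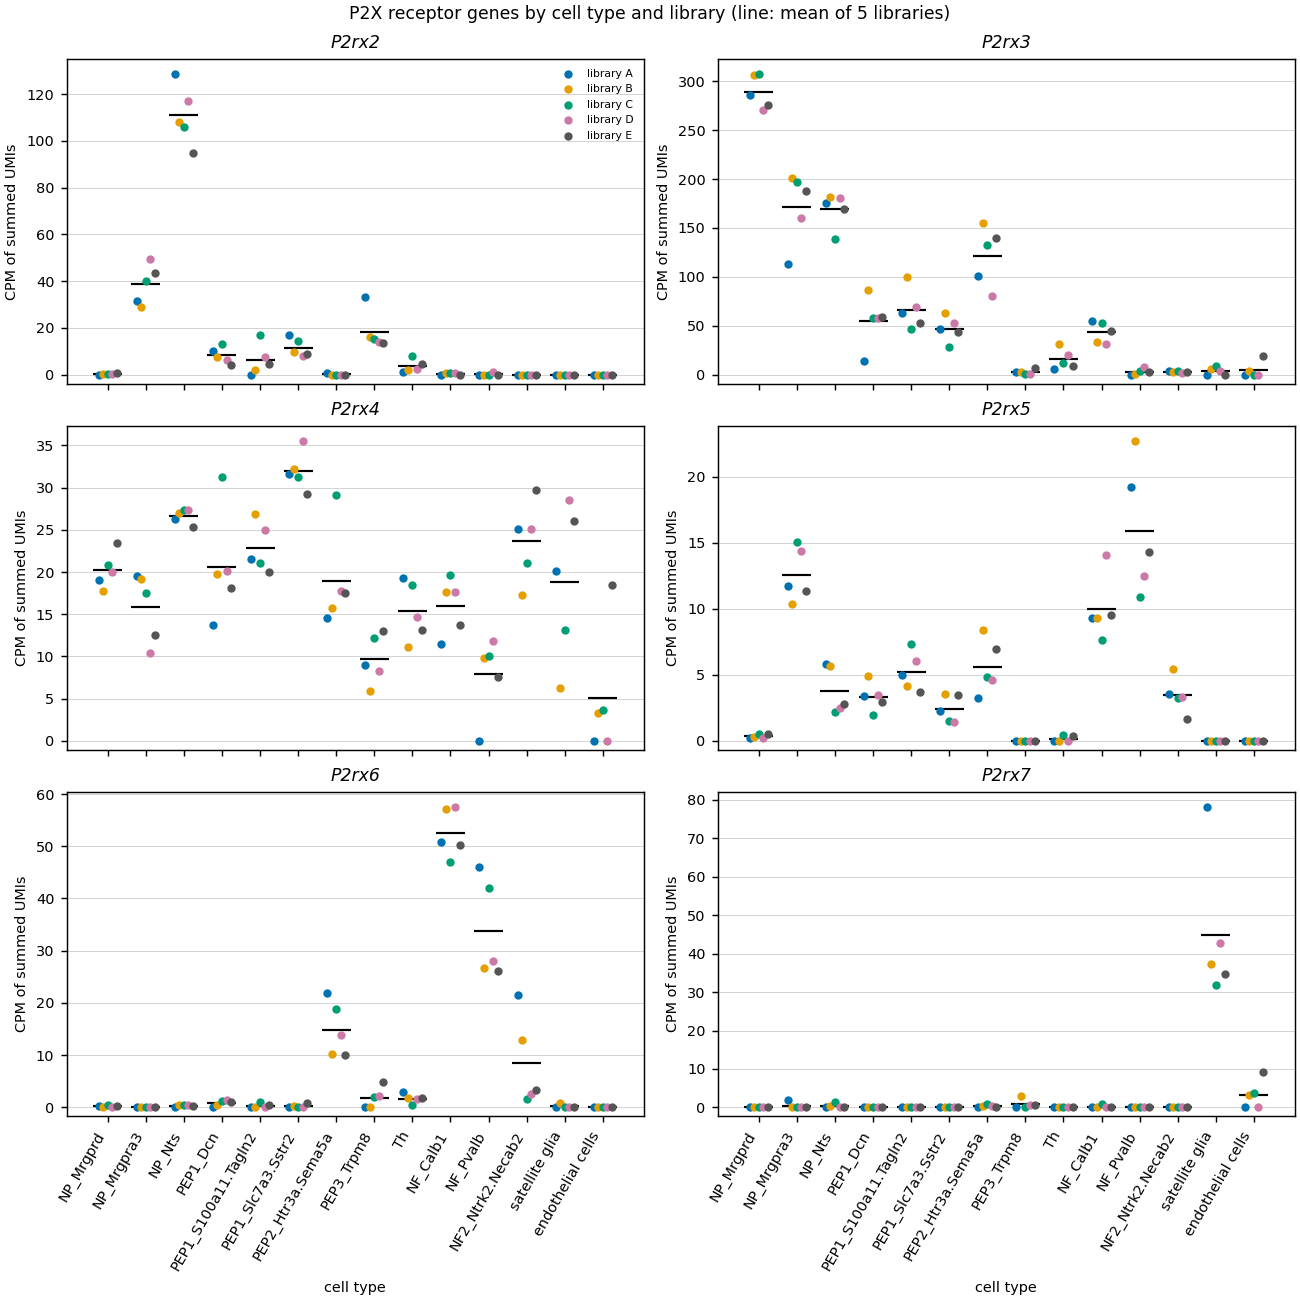
CPM of the 6 P2X receptor genes (one panel each, own linear scale) by cell type, with a point for each of the 5 libraries and a line at their mean. P2rx2 separates NP_Nts and NP_Mrgpra3 from NP_Mrgprd, P2rx6 is high in NF_Calb1 and NF_Pvalb, and the P2rx7 value of 78.2 CPM in satellite glia of library A lies apart from the other 4.

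Since P2X2 and P2X3 can share a channel, the cells with a UMI of each were counted. In NP_Nts, 386 of 400 cells had both (96.5%, and 91.7% to 100% over libraries) and the other 14 had P2rx3 alone. In NP_Mrgpra3, 90 of 104 cells had both (86.5%). NP_Mrgprd was the reverse, with P2rx3 alone in 879 of 900 cells and both in 16. PEP2_Htr3a.Sema5a had P2rx3 alone in 164 of 206 cells and both in 1. The 3 non-peptidergic types thus all carried P2rx3 and parted by P2rx2.

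The PEP1 types had a minority with both genes, at 12.7% of the PEP1_S100a11.Tagln2, 16.1% of the PEP1_Slc7a3.Sstr2 and 18.4% of the PEP1_Dcn cells. PEP3_Trpm8 was the one type where P2rx2 without P2rx3 outnumbered the other combinations with a UMI, in 45 of 168 cells against 7 with both and 7 with P2rx3 alone. These are shares at the depth of each type, and a cell without a UMI can still express the gene. At 10000 UMIs per cell P2rx2 was seen in 62.2% of NP_Nts, 37.5% of NP_Mrgpra3, 16.7% of PEP3_Trpm8 and 9.65% of PEP1_Slc7a3.Sstr2 neurons.

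**Figure D4:**
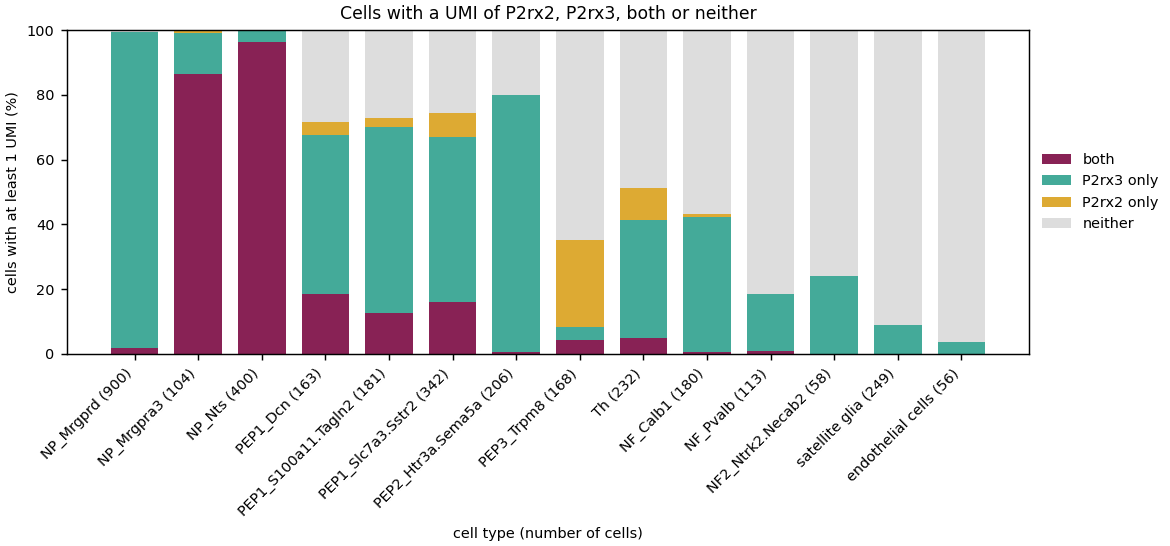
Share of cells (%) of each type with at least 1 UMI of P2rx2 and P2rx3, of P2rx3 only, of P2rx2 only or of neither, with the number of cells in brackets on the axis. Both genes are found in 96.5% of NP_Nts and 86.5% of NP_Mrgpra3 cells, and P2rx3 alone dominates in NP_Mrgprd and PEP2_Htr3a.Sema5a.

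P2rx5 encodes another channel subunit (chr11:73160421-73172685, plus strand). NF_Pvalb, the neurons of muscle sense, had 19.2 CPM in library A, 22.7 in B, 10.9 in C, 12.5 in D and 14.3 in E. NP_Mrgpra3 had 11.7 CPM in library A, 10.3 in B, 15.1 in C, 14.3 in D and 11.3 in E. NF_Calb1 was at 9.98 ± 2.42 CPM (SD, n = 5), and the ranges of neighbours among these types overlapped. Their log2 fold changes were 2.43 ± 0.20 (SE, adjusted p = 6e-08), 2.33 ± 0.19 (SE, adjusted p = 2.2e-07) and 1.75 ± 0.18 (SE, adjusted p = 9.7e-07), with 5 of 5 libraries higher in each type. P2rx5 thus split the non-peptidergic class: NP_Nts had 3.80 CPM and NP_Mrgprd 0.356 CPM, the last with a log2 fold change of -3.44 ± 0.24 (SE, adjusted p = 2.8e-08). No UMI was found in PEP3_Trpm8, satellite glia or endothelial cells, and the gene was at least 5.83-fold lower in PEP3_Trpm8 (adjusted p = 0.00011) and 4.90-fold in satellite glia (adjusted p = 9.8e-05) than in the other cells. In NP_Mrgpra3, 56 of 104 cells had a UMI of both P2rx2 and P2rx5.

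P2rx6, the gene of a subunit that works mainly in channels mixed with other subunits (chr16:17561885-17577800, plus strand), was high in 2 neurofilament types. In NF_Calb1 it had 50.9 CPM in library A, 57.2 in B, 47.1 in C, 57.5 in D and 50.2 in E, and 93.9% of cells had a UMI. NF_Pvalb had 46.0 CPM in library A, 26.7 in B, 42.0 in C, 28.0 in D and 26.2 in E. Each library of NF_Calb1 was above each of NF_Pvalb, and the log2 fold changes against all other cells were 4.0 ± 0.24 (SE, adjusted p = 4.8e-09) and 2.43 ± 0.29 (SE, adjusted p = 3.9e-06). PEP2_Htr3a.Sema5a, the myelinated peptidergic neurons, came next at 14.9 ± 5.27 CPM (SD, n = 5), with a log2 fold change of 1.15 ± 0.31 (SE, adjusted p = 0.0058) whose call was lost without library B, at 1.24, or without library D. NF2_Ntrk2.Necab2 overlapped it with 1.62 to 21.5 CPM, the highest value coming from library A with 3 cells.

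P2rx6 was low elsewhere, at 1.84 CPM or less. In NP_Mrgpra3 no UMI was found in 104 cells, which makes it at least 19.6-fold lower than in the other cells (adjusted p = 0.0002). The log2 fold change was -5.66 ± 0.43 (SE, adjusted p = 6.6e-08) in NP_Mrgprd and -4.50 ± 0.47 (SE, adjusted p = 1.8e-06) in NP_Nts, and all 3 PEP1 types, Th and satellite glia were also called lower, from 0.178 CPM in satellite glia to 1.69 CPM in Th. The sign in Th turned in the model with equal weights, without a call. P2rx5 and P2rx6 were found together in 82 of 180 NF_Calb1 cells, 47 of 113 NF_Pvalb cells and 37 of 206 PEP2_Htr3a.Sema5a cells. The gene overlaps Slc7a4 on the other strand. Slc7a4 was at 10.0 CPM in NF_Calb1 and 24.8 CPM in PEP1_Slc7a3.Sstr2, where P2rx6 was at 52.6 and 0.238 CPM.

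P2rx4 encodes a subunit known from many tissues and from microglia after nerve injury (chr5:122707544-122729738, plus strand). It was the most evenly spread of the 10, with means of 5.10 CPM in endothelial cells to 32.0 CPM in PEP1_Slc7a3.Sstr2 and a 4.06-fold difference between the highest and the lowest neuron type. It had UMIs in all 14 types and was called higher in none. PEP1_Slc7a3.Sstr2 had 31.6 CPM in library A, 32.2 in B, 31.3 in C, 35.6 in D and 29.2 in E, each above all libraries of the next type, NP_Nts, at 26.7 ± 0.878 CPM (SD, n = 5). From NP_Nts down, each type overlapped the next through to endothelial cells. The lower calls were NF_Pvalb, at -1.25 ± 0.25 (SE, adjusted p = 0.00041) on the log2 scale, and endothelial cells, at -2.20 ± 0.50 (SE, adjusted p = 0.001). The level in endothelial cells rests on 4 UMIs in 56 cells.

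The P2X7 channel, encoded by P2rx7, opens at high ATP and is best known from macrophages and microglia (chr5:122643911-122691432, plus strand, next to P2rx4). Here it was a gene of the satellite glia, the cells that wrap the neuron bodies. They had 78.2 CPM in library A, 37.4 in B, 31.9 in C, 42.8 in D and 34.7 in E, with a UMI in 121 of 249 cells (48.6%). The log2 fold change against all other cells was 8.22 ± 0.35 (SE, adjusted p = 1.5e-12). The next type, endothelial cells, had 3 UMIs in 56 cells and a level of 3.25 ± 3.78 CPM (SD, n = 5), below each library of the glia. No neuron type exceeded 0.821 CPM, and PEP1_Dcn, PEP1_S100a11.Tagln2, Th, NF_Pvalb and NF2_Ntrk2.Necab2 had no UMI.

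P2ry12 encodes the ADP receptor of platelets and microglia (chr3:59216272-59262871, minus strand). Satellite glia had 27.7 CPM in library A, 27.6 in B, 22.9 in C, 38 in D and 17.3 in E, with a UMI in 98 of 249 cells (39.4%). The log2 fold change was 8.77 ± 0.34 (SE, adjusted p = 5.5e-13). The highest of the other types, NP_Nts, was at 0.470 CPM, and 6 types including endothelial cells had no UMI. P2rx7 and P2ry12 were found together in 49 of 249 glial cells, in 72 and 49 cells alone, and in 79 cells neither. The counts are low, with at most 5 UMIs of P2ry12 in a cell, so a cell without a UMI may still express the gene. P2ry12 lies inside Med12l, which runs on the other strand and was at 1.67 CPM in satellite glia and 26.2 CPM in NF_Calb1.

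Because both genes are markers of macrophages in other tissues, the 13 macrophage markers listed for this purpose were counted in the 249 satellite glia. Of the 12 in the matrix, Aif1, Csf1r, Cx3cr1 and Ptprc had no UMI. The summed level of the 12 ranged from 17.4 to 55.5 CPM over libraries, and Cd68, a lysosomal gene, made up 109 of the UMIs and was called higher in satellite glia. The other 11 markers together had a UMI in 6 of 249 cells. Without those 6 cells, the pooled level was 39.8 CPM for P2rx7 (40.5 with them) and 28.3 CPM for P2ry12 (28.2 with them). Of the platelet genes, 3 of 4 were in the matrix and none was called higher in satellite glia, with Ppbp at 0 and a summed 8.66 to 25.8 CPM. Genes of myelinating Schwann cells were present: 4 of 8 were called higher in the type, where 14.8% of all genes were, at a summed 1453 to 2419 CPM, and Th neurons had 1498 to 2040 CPM. Whether the receptors belong to satellite or Schwann cells among these was not tested. Against the same 14.8%, fibroblast genes (2 of 6 called higher) and mural genes (0 of 8) summed to 196 to 1115 and 32.8 to 56.2 CPM.

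P2ry2 encodes a receptor for UTP and ATP (chr7:100996568-101012866, minus strand). It was called higher in 3 types of different kind. Satellite glia had 55.5 CPM in library A, 82.8 in B, 25.7 in C, 14.3 in D and 37.5 in E, a wide range around a mean of 43.1 CPM, and a log2 fold change of 3.41 ± 0.34 (SE, adjusted p = 1e-07). NP_Mrgpra3 had 5.87 CPM in library A, 17.0 in B, 25.1 in C, 26.3 in D and 21.4 in E, with a UMI in 82.7% of cells and a log2 fold change of 2.34 ± 0.30 (SE, adjusted p = 2e-05). PEP2_Htr3a.Sema5a had 20.2 CPM in library A, 16.8 in B, 15.5 in C, 14.4 in D and 19.9 in E, with a log2 fold change of 1.97 ± 0.23 (SE, adjusted p = 8.1e-06). The ranges of the 3 types overlapped, so their order is not set.

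P2ry2 again parted the non-peptidergic neurons. NP_Nts had 2 UMIs in 400 cells and a log2 fold change of -5.87 ± 0.54 (SE, adjusted p = 4.1e-07), and NP_Mrgprd was at 0.493 CPM with -3.88 ± 0.27 (SE, adjusted p = 3.5e-08). NF_Pvalb, NF2_Ntrk2.Necab2 and PEP3_Trpm8 were called lower too, all at or under 0.347 CPM. Endothelial cells had 11.1 CPM on average but 39.7 in library B and 0 in A and E, from 16 UMIs in all. Th neurons, at 8.36 ± 2.11 CPM (SD, n = 5), were called neither way, and higher only with equal weights for the other types, at 1.57 ± 0.28 (SE, adjusted p = 1.8e-06).

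As P2rx7, P2ry2 and P2ry12 were all called higher in satellite glia, the 250 bases before the start sites of P2rx7 and P2ry12 were read from the RefSeq promoter table (GRCm38.p6) and searched for the core motif of Sox factors, since Sox10 marks these cells. The letters ACAAAG and ACAATG were searched on both strands, and 25.2% of 32851 windows of this length hold at least 1. P2rx7 has 2 start sites there. The window of 1 of them had 1 match, 120 bases before the start. It is shown without its last 16 bases, which lie in the annotated gene (chr5:122643677-122643910, plus strand). The P2ry12 window had 2 matches, 179 and 76 bases before the start (chr3:59262986-59263235, minus strand). Matches are in capitals and are a description of letters only. The window of the other P2rx7 start site and the windows of P2ry2 lie inside the annotated genes and are not shown.
P2rx7: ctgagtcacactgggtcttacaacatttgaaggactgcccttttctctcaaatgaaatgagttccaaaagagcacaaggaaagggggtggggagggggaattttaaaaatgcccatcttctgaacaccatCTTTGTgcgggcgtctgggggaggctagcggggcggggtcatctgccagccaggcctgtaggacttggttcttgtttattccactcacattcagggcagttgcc
P2ry12: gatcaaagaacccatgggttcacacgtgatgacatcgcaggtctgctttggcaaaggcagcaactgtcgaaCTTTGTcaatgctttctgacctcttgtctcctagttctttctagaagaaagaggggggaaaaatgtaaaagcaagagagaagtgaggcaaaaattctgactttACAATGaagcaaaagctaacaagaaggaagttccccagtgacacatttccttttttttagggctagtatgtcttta

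P2ry1 encodes the receptor that answers to ADP and couples to phospholipase C (chr3:61002795-61008982, plus strand). It was found at far higher levels in Th and NF2_Ntrk2.Necab2 neurons than elsewhere. Th neurons, the C fibres of gentle touch, had 374 CPM in library A, 644 in B, 439 in C, 437 in D and 347 in E. NF2_Ntrk2.Necab2 neurons had 201 CPM in library A, 469 in B, 612 in C, 491 in D and 402 in E. The 2 ranges overlapped widely, with library A low in NF2_Ntrk2.Necab2 and library B high in Th, and each cell of both types had a UMI. The log2 fold changes against all other cells were 4.54 ± 0.20 (SE, adjusted p = 3.3e-10) in Th and 3.42 ± 0.34 (SE, adjusted p = 8.1e-07) in NF2_Ntrk2.Necab2.

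After a 12.1-fold step between means, PEP2_Htr3a.Sema5a at 36.0 ± 11.6 CPM (SD, n = 5) and NF_Calb1 at 30.3 ± 3.10 CPM (SD, n = 5) followed with overlapping ranges, then NF_Pvalb at 9.71 ± 5.36 CPM (SD, n = 5). NF_Pvalb was called lower against all other cells, at -2.50 ± 0.36 (SE, adjusted p = 2.2e-05), and higher in the model with equal weights, so its direction depends on the comparison. In NP_Nts no P2ry1 UMI was found in 400 cells and 21310364 UMIs, which allows up to 0.141 CPM and makes the gene at least 378-fold lower than in the other cells (adjusted p = 9.2e-07). NP_Mrgprd and NP_Mrgpra3 were at 4.06 and 3.06 CPM, near the 3.71 CPM of satellite glia, which were called lower against all other cells, a sign that turned in the model with equal weights. In NP_Mrgprd a UMI was found in 26% of cells, with up to 15 in a cell and 56.9% of the UMIs in the 90 cells with most. The PEP1 types lay between 0.238 and 0.844 CPM and were called lower, down to a log2 fold change of -7.52 ± 0.57 (SE, adjusted p = 5.6e-08) in PEP1_Slc7a3.Sstr2. P2ry1 and P2ry2 were found together in 114 of 206 PEP2_Htr3a.Sema5a and 86 of 232 Th cells.

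P2ry14, the receptor for UDP-glucose (chr3:59113855-59153618, minus strand), had 88 UMIs in all. Of these, 54 lay in NF_Pvalb, with 7.67 CPM in library A, 6.92 in B, 7.56 in C, 4.98 in D and 7.92 in E. The range was narrow, 35.4% of the 113 cells had a UMI, and each library was above all libraries of the next type, PEP1_S100a11.Tagln2, at 0.740 CPM. The log2 fold change was 5.43 ± 0.32 (SE, adjusted p = 1.8e-09), and the gene did not pass the low count filter of the fit with equal weights. The gene lies inside Med12l on the other strand. Med12l was highest in NF_Pvalb (27.5 CPM) and NF_Calb1 (26.2 CPM), where P2ry14 was at 0.452 CPM.

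**Figure D5:**
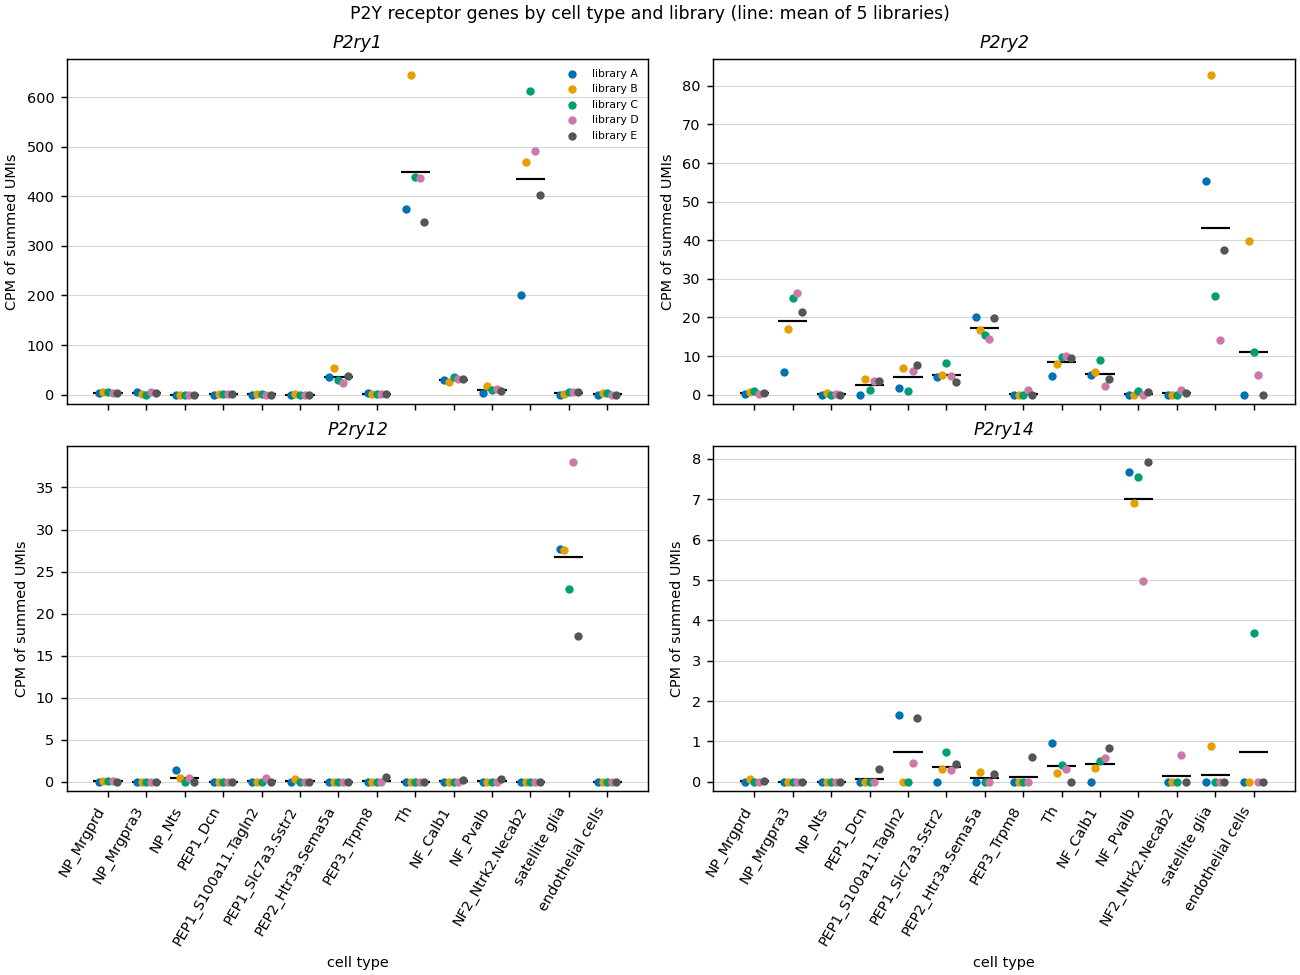
CPM of the 4 P2Y receptor genes (one panel each, own linear scale) by cell type, with a point for each of the 5 libraries and a line at their mean. P2ry1 is high in Th and NF2_Ntrk2.Necab2, P2ry2 in satellite glia with a wide spread of 14.3 to 82.8 CPM, P2ry12 in satellite glia and P2ry14 in NF_Pvalb.

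The non-peptidergic class as a whole was compared with the other 9 neuron types, since P2X channels are known for it. P2rx3 and P2rx2 were called higher, 2 of the 8 receptors tested, where 5.47% of 13096 genes were. P2rx3 was at 259 ± 16.7 CPM in NP neurons and 50.7 ± 10.6 CPM in the others, a log2 fold change of 2.55 ± 0.12 (SE, adjusted p = 2.1e-10). P2rx2 was at 21.7 ± 7.70 CPM and 4.30 ± 0.996 CPM, a log2 fold change of 2.58 ± 0.23 (SE, adjusted p = 2e-07). The value for P2rx2 averages over types as far apart as NP_Nts and NP_Mrgprd. P2ry1 and P2rx6 were called lower, against 9.42% of all genes, at -4.89 ± 0.27 (SE, adjusted p = 9.4e-10) and -6.02 ± 0.30 (SE, adjusted p = 3.6e-10). P2rx5, P2ry2 and P2ry14 were lower in 5 of 5 libraries, at -1.24 ± 0.15 (SE, adjusted p = 4.4e-06), -1.51 ± 0.22 (SE, adjusted p = 2.1e-05) and -5.10 ± 0.57 (SE, adjusted p = 1.8e-06), but were not called, because in this comparison the rule asked for a UMI in at least 25% of cells on the higher side for lower calls too, and fewer of the other neurons had one. P2rx4 differed by 0.32 on the log2 scale. The other class values also cover unlike types. Within the NP class, NP_Mrgpra3 was called higher against all other cells for P2rx5 (12.6 CPM) and P2ry2 (19.1 CPM). Among the other neurons, the 3 PEP1 types were themselves called lower against all other cells for P2ry1 and P2rx6.

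Across the 14 type means of log2(CPM + 1), the 3 genes closest to each receptor among 11092 were named as a description, without a test, since types of 1 tissue share libraries and depth. For P2rx3 they were Scn10a (r = 0.95), Nmb (r = 0.93) and Scn11a (r = 0.93), of which Scn10a and Scn11a encode sodium channels of nociceptors. For P2rx2 they were Smpd5 (r = 0.96), Rnf8 (r = 0.94) and Diablo (r = 0.88), for P2rx4 Vwa5a (r = 0.91), Ttc38 (r = 0.90) and AW549877 (r = 0.89), and for P2rx5 2010001A14Rik (r = 0.89), Fgf1 (r = 0.88) and Map7d2 (r = 0.87). P2rx6 lay closest to Fgf9 (r = 0.97), Exoc4 (r = 0.97) and Ermp1 (r = 0.96), and P2ry1 to Tmem132c (r = 0.94), Card14 (r = 0.91) and Smc4 (r = 0.89). For the receptors of satellite glia they were Col3a1 (r = 0.99), Paqr6 (r = 0.99) and Cyp4f15 (r = 0.99) for P2rx7 and Gfap (r = 1.00), Gpnmb (r = 0.99) and Slc6a11 (r = 0.99) for P2ry12. Both receptors were low in all other types, so these r values rest largely on satellite glia alone. Rank correlation with P2ry12 was 0.42 for Gfap, 0.61 for Gpnmb and 0.39 for Slc6a11. P2ry2 had less similar genes, Dennd2a (r = 0.80), Ptk2 (r = 0.78) and Pon2 (r = 0.78). Gfap encodes a glial filament, while Col3a1 is one of the fibroblast genes counted above. These names depend on the measure, since no receptor kept all 3 of them with rank correlation or with the 70 sums of type and library.

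The surroundings of the receptors were read from lists of the pathway. Of 5 further P2 receptors, P2rx1, P2ry4, P2ry10 and P2ry13 were not among the rows and P2ry6 had 6 UMIs in all. Of 12 enzymes that split nucleotides outside or inside the cell, 10 were called higher in at least 1 type, as were 50.2% of the 13733 genes tested. Satellite glia had 5 of them called higher, where 14.8% of all genes were: Entpd2, Entpd1, Enpp1, Enpp2 and Alpl. Another 5 of the 12 were called lower there, against 32.5% of all genes. Entpd2, an ectoenzyme that turns ATP to ADP, led the higher ones at 115 ± 47.6 CPM (log2 fold change 7.12, adjusted p = 4.7e-13). Acpp, the phosphatase long used to stain non-peptidergic neurons, was at 364 ± 27.5 CPM in Th (log2 fold change 1.04, adjusted p = 5.9e-06) and 313 ± 22.1 CPM in NP_Mrgprd (log2 fold change 1.57, adjusted p = 6.8e-08). Nt5e, which makes adenosine from AMP, was at 135 ± 13.4 CPM in NP_Nts (log2 fold change 2.51, adjusted p = 3.2e-10), the type with most P2rx2.

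Of the genes that take up or break down adenosine, 6 of 6 were called higher in some type (50.2% of all genes). NP_Nts (4.88% of all genes) and PEP1_Slc7a3.Sstr2 (4.98%) had 3 each. In NP_Nts, Adk, adenosine kinase, stood at 2033 ± 512 CPM (log2 fold change 2.14, adjusted p = 1.1e-06), and Ada, adenosine deaminase, at 189.9 ± 65.5 CPM (5.93, adjusted p = 2.9e-10), beside the transporter gene Slc29a1. Pnp, which splits the inosine that Ada makes, was highest in endothelial cells (406 ± 68.1 CPM). All 3 adenosine receptor genes in the matrix were called lower in NP_Nts, as were 18.5% of all genes. Adora1 was highest in PEP1_Dcn (122 ± 25.6 CPM), Adora2b in NP_Mrgpra3 (67.4 ± 20.1 CPM, log2 fold change 3.85, adjusted p = 2.4e-09), and Adora2a was called higher in NF2_Ntrk2.Necab2 (9.57 ± 1.74 CPM) and Th (6.07 ± 1.74 CPM), the types with most P2ry1. Of 6 genes tied to ATP release in the matrix, 3 were called higher in a type, against 50.2% of all genes: Gja1, the connexin of glia, in endothelial cells (161 ± 72.4 CPM) and satellite glia (116 ± 21.3 CPM), and Panx2 and Lrrc8a in NF_Calb1 and NF_Pvalb, with Panx2 at 109 ± 12 CPM in NF_Pvalb. Panx1, a channel of ATP release, was called higher in no type.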

How the data were processed

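Lumbar DRG cells of 5 mice were profiled by droplet single-cell RNA-seq. The authors deposited raw UMI counts of 17271 rows in 3352 cells, made with Cell Ranger on mm10 per the submitters' processing notes, and a cell type for each cell, assigned with Seurat. From these deposited counts, UMIs were summed per library and type and scaled to CPM. The 4 rows without a gene name (6.37e-05% of UMIs) were left out.

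Each type was compared with all other cells, and the 3 NP types with the other 9 neuron types, by edgeR's quasi-likelihood test (edgeR 4.0.16, R 4.3.3, TMM scaling, filterByExpr), with Benjamini-Hochberg adjustment over all genes tested. Each of the 5 library identifiers was taken as 1 mouse, and p-values measure the spread between these 5 libraries. A type and its comparator come from the same libraries. Their deviations from the group means correlated by -0.0113 to 0.505 over 70 pairs, of which 48 were over 0.1, and the fit with the library as a block is an alternative. The steps were tested on simulated data. DESeq2 1.42.0 was an alternative.

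A count of 0 was bounded at 3 counts, which covers counting error only. Shares of cells were also computed after thinning each cell to 10000 UMIs. No doublets were called here. All 10 receptors are named, with at most 3 called genes with values of each pathway list by level, and the 3 most like genes of each receptor with at least 10 CPM in its highest type. The members and lists were chosen with earlier results of these data known.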

Additional observations from a re-analysis of the deposited data

Results flagged for a closer look

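P2rx7 in satellite glia stood out for 1 library: library A had 78.2 CPM and the other 4 had 31.9 to 42.8 CPM. The gap to the nearest value made up 0.765 of the whole range, above Dixon's 95% critical value for 5 samples. Of 17 pairs of receptor and type examined this way it was the only one, and chance gives such a value in about 1 in 20 groups. Library A held 19 satellite glia, the fewest of the 5 libraries.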

How the results depend on the processing

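In 1 model of all sums, which changed the weights of the other types, the fit and its filter together, 28 pairs of receptor and type were called higher in place of 17 (16 of them shared) and 13 lower in place of 47. Of the 34 lower calls lost, 23 kept their sign with an SE above 5 and could not be tested there. The log2 fold change changed sign there for P2rx3 in NF_Calb1 (0.68), PEP1_Dcn (1.25), PEP1_S100a11.Tagln2 (1.43) and PEP1_Slc7a3.Sstr2 (0.88), for P2ry1 in NF_Pvalb (1.02) and satellite glia (0.085), and for P2rx2 (1.65) and P2rx6 (0.62) in Th. Except for P2rx3, these values depend on the prior count, since some types have no UMI. NP_Mrgprd holds 41.1% of the UMIs of all cells, and the cause of the changes was not tested. Without the minimum share of cells, 7 receptors in place of 4 were called between NP and other neurons, which adds P2rx5, P2ry2 and P2ry14 as lower.

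With the replicate block, 17 pairs were called higher and 51 lower. The block lost no call and added P2rx2 in PEP1_S100a11.Tagln2, P2rx4 in PEP3_Trpm8, P2rx6 in endothelial cells and P2rx7 in NP_Nts. DESeq2 gave 17 and 50, no filter on low counts 17 and 53, sums of at least 10 cells 17 and 46, and an adjusted p under 0.05 17 and 50. Leaving out each library in turn gave 16 to 18 higher and 47 to 50 lower calls, and 4 between NP and other neurons each time. P2rx6 in PEP2_Htr3a.Sema5a was lost without library B or D, P2rx5 in PEP2_Htr3a.Sema5a was gained without A or C, and the lower call of P2rx2 in endothelial cells was lost without A, C or E and with sums of at least 10 cells. The highest level of each receptor stayed within 1 SD under the level alternatives, including one chosen after seeing the data that left out cells of shared barcodes (at most 0.384% change). Thinning moved 9 of 10 shares. Satellite glia and endothelial cells had the fewest UMIs, so low levels there are bounded least tightly.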
